A study of Mus musculus with 17 samples.

Results

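The genes described here encode antiviral effectors of the interferon response: the oligoadenylate synthetases Oas1a, Oas1g, Oas2 and Oas3, the synthetase-like proteins Oasl1 and Oasl2, the MX GTPases Mx1 and Mx2, and the nucleotide-modifying enzymes Rsad2 (viperin) and Cmpk2. They were chosen by name, 10 of the 31091 gene identifiers in the count table, and all 10 were found and passed the filter on low counts in every fit. Their levels were compared across 6 groups of sorted type 1 and type 2 conventional dendritic cells (cDC1s and cDC2s) in 17 samples. The groups addressed how cDCs respond to tumor cells that die by apoptosis or necroptosis.

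The cDCs came from spleens of young adult female C57BL/6JRj mice bearing B16 melanoma cells that secrete FLT3 ligand, which expands cDCs, and spleens of several mice were pooled per experiment. Enriched CD11c+ splenocytes then spent 6 h in medium taken from TC-1 cells, a C57BL/6 lung epithelial tumor line, with GM-CSF present in every culture. WT medium came from unmodified TC-1 cells, BimS medium from TC-1-iBimS cells undergoing apoptosis and RIPK3 medium from TC-1-iRIPK3 cells undergoing necroptosis. All tumor cells, WT included, had received cumate, the compound that induces the transgene in the engineered lines, and the medium was passed on with its debris. TC-1-iBimS and TC-1-iRIPK3 are clonal lines, so that the form of death cannot be told apart from the clone. After culture, cDC1s and cDC2s were sorted on surface markers, with 3 samples per group and 2 samples of cDC2s with RIPK3 medium. Nothing in the labels says that samples of a group came from separate animals, so p-values measure the spread between these samples.

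Type I interferon acts through the receptor subunits Ifnar1 and Ifnar2 and the factor ISGF3, which holds Stat2 and Irf9, which binds the interferon-stimulated response element (ISRE) near the start of its target genes. OAS proteins sense RNA duplexes and make short 2',5'-linked oligoadenylates that trigger the breakdown of RNA. MX proteins are dynamin-like GTPases that trap viral components, and viperin makes a nucleotide that ends viral RNA chains. In dendritic cells, such genes are used as a readout of interferon exposure.

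The promoters of the genes were searched for the ISRE core, since the genes share this route of induction. The search covered the 250 bases before and the first 50 bases from the start of the canonical transcript in GRCm39, on both strands. The letters GAAANNGAAA occurred in 5 of the 10 genes, in 13 of 30 other interferon-stimulated genes (43.3%) and in 3.87% of the promoters of 18998 genes tested. They were found in Oas1a, Oas1g, Oas2, Oas3 and Rsad2. The windows below are shown for the members whose matches lie before the start, 5′ to 3′ on the strand of the gene, with the matched letters in capitals. All lie on the minus strand of the genome: Oas1g at chr5:121025654-121025713, Oas2 at chr5:120887955-120888014, Oas3 at chr5:120915765-120915824 and Rsad2 at chr12:26506537-26506596.
Oas1g: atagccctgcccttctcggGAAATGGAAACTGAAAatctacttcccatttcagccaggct
Oas2: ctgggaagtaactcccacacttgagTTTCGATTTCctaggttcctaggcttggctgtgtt
Oas3: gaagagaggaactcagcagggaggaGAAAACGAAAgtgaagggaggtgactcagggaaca
Rsad2: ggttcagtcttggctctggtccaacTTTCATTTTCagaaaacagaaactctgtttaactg

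In Oas1g the capitals hold 2 overlapping matches, at -49 to -40 and -43 to -34 from the start. In Oas2 and Rsad2 the match is on the opposite strand, at -56 to -47 and at -120 to -111. In Oas3 it lies at -70 to -61. In Oas1a 2 overlapping matches lie just after the start, at 3 to 12 and 9 to 18. The letters were not in this window of Oasl1, Oasl2, Mx1, Mx2 or Cmpk2. The interferon-gamma activated site, TTCNNNGAA, occurred in Oas1a alone (-76 to -68), in 7.56% of all promoters. A match of letters is a description of the sequence and does not show a bound site.

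Each sample held between 16095159 and 21645289 counted reads (median 18986002), and no pair among the 136 pairs of samples held identical counts. Levels are CPM, counts scaled to library size after TMM normalization. Unless DESeq2 is named, adjusted p is from edgeR's quasi-likelihood test with Benjamini-Hochberg adjustment over all genes tested. The threshold was 0.05. The sorted cells carried the markers of their labels. The summed level of 7 cDC1 markers was between 1190.7 and 1355.8 CPM in cDC1 samples and between 46.9 and 84.3 CPM in cDC2 samples. That of 7 cDC2 markers was between 2.14 and 3.76 CPM in cDC1 samples and between 270.1 and 338.1 CPM in cDC2 samples. Lists of B cell and of T and NK cell markers summed to at most 1.65 and 1.23 CPM in any sample. Other lists stood higher, most of all in cDC2 samples. Plasmacytoid dendritic cell markers summed to between 158.5 and 191.3 CPM in cDC2 and 48.2 and 65.4 CPM in cDC1 samples. The TC-1 list was between 19.9 and 39.8 and between 3.63 and 5.37 CPM, and the macrophage and monocyte list between 21.5 and 33.8 and between 8.22 and 14.3 CPM. The part of other cells in the levels below was not tested. These are bulk samples, so fewer expressing cells and less RNA per cell cannot be told apart.

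With WT medium, 8 of the 10 genes differed between the cell types: Oasl1 was higher in cDC1s, and Oas1a, Oas1g, Oas2, Oas3, Oasl2, Rsad2 and Cmpk2 were higher in cDC2s. Of all genes tested, 22.5% were called higher in cDC1s and 23.7% lower. The median log2 fold change of the members, cDC1 over cDC2, was -1.15, beside 0.01 over all genes. Oas2 had the largest difference, 16.8-fold lower in cDC1s (log2 fold change -4.07, SE 0.22, adjusted p = 2.41e-11), followed by Oas1a, 10.0-fold lower (-3.33, SE 0.20, adjusted p = 2.66e-12). Oas1g was 4.57-fold lower, Rsad2 2.82-fold, Oasl2 2.77-fold, Oas3 1.76-fold and Cmpk2 1.37-fold. The Cmpk2 call was lost without cDC1 WT replicate 1, cDC2 WT replicate 1 or cDC1 WT replicate 3, with an adjusted p of at most 0.115. Oasl1 was 5.94-fold higher in cDC1s (log2 fold change 2.57, SE 0.13, adjusted p = 3.34e-11). Mx1 showed a log2 fold change of 0.12 (95% interval -0.16 to 0.40, adjusted p = 0.507). Mx2 showed -0.32 (-0.63 to -0.02, adjusted p = 0.0754) and was not called. It was called in a fit with a block for each replicate number within each cell type (adjusted p = 0.0129). That block does not pair cDC1s with cDC2s and takes differences between replicates out of the spread, so it cannot decide this comparison.

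Per kb of the canonical transcript, the order of the genes also differed between the cell types. In cDC1s with WT medium Oasl1 stood highest at 166 ± 15.9 CPM per kb (SD, n = 3), followed by Oasl2 at 35.1 ± 3.93 and Mx1 at 8.19 ± 0.547 CPM per kb. Below them came Oas3, Rsad2 and Mx2, at 4.44 ± 0.530, 4.43 ± 0.235 and 3.69 ± 0.384 CPM per kb. The lowest were Cmpk2, Oas1a, Oas1g and Oas2, at 1.63 ± 0.135, 1.25 ± 0.393, 0.991 ± 0.418 and 0.592 ± 0.114 CPM per kb. Oas3 and Rsad2, and each neighbouring pair from Cmpk2 to Oas2, had overlapping ranges of the mean ± SD. In cDC2s Oasl2 stood highest at 96.7 ± 8.19 CPM per kb (n = 3), followed by Oasl1 at 27.7 ± 2.63, Oas1a at 12.6 ± 2.07 and Rsad2 at 12.4 ± 0.0623 CPM per kb. Oas2, Oas3 and Mx1 followed at 9.97 ± 0.614, 7.78 ± 0.692 and 7.49 ± 0.959 CPM per kb. Mx2, Oas1g and Cmpk2 were lowest at 4.60 ± 0.269, 4.56 ± 1.15 and 2.22 ± 0.142 CPM per kb. The pairs Oas1a and Rsad2, Oas3 and Mx1, and Mx2 and Oas1g also had overlapping ranges.

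**Figure D1:**
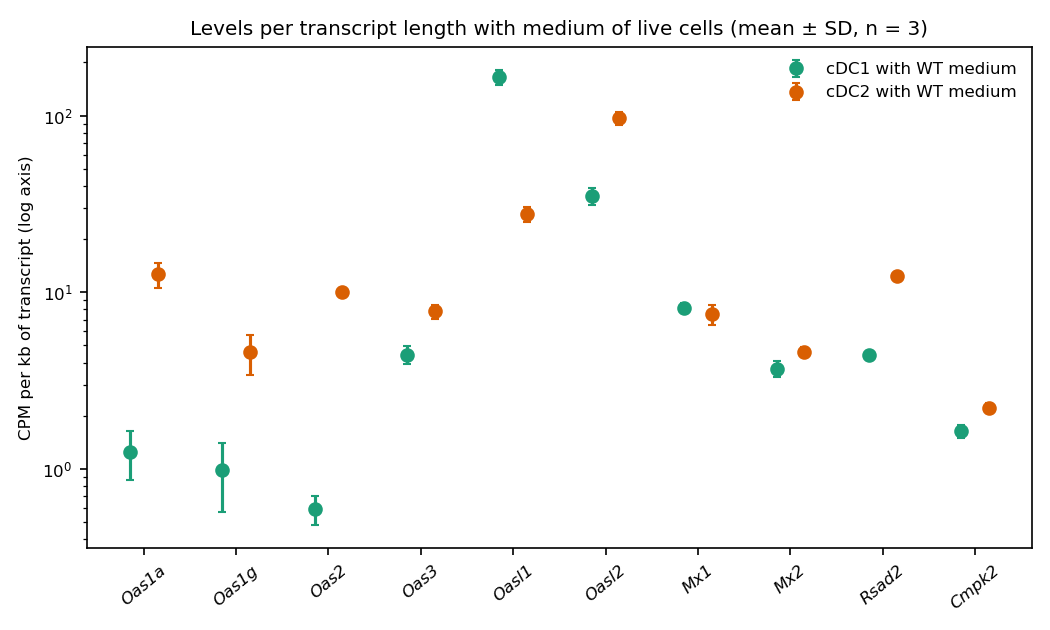
Level of each gene with WT medium in CPM per kb of canonical transcript (log axis), as mean ± SD of 3 samples per cell type. Oasl1 is the top gene in cDC1s (166 CPM per kb) and Oasl2 in cDC2s (96.7 CPM per kb), while Oas2 is lowest in cDC1s (0.592 CPM per kb).

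Between media, most of the genes fell in cDC2s with both BimS and RIPK3 medium, the median changes were smaller in cDC1s, and Oasl1 was the exception. In cDC2s with RIPK3 medium 9 of 10 genes were called lower than with WT medium, all but Oasl1, where 3.28% of all genes were called lower and 3.93% higher. With BimS medium the same 9 genes were called lower, beside 3.21% of all genes lower and 3.8% higher. In cDC1s 6 of 10 were called lower with RIPK3 medium (8.19% of all genes) and 3 of 10 with BimS medium (5.89%), and Oasl1 alone was called higher with each (8.34% and 7.31%). The median log2 fold change of the 10 genes against WT medium was -0.84 with BimS and -1.65 with RIPK3 medium in cDC2s, and -0.42 and -0.88 in cDC1s. Over all genes these medians were -0.02, -0.02, 0.00 and -0.01. Both comparisons within a cell type share their WT samples. The 4 calls of BimS medium in cDC1s fell to 2 without cDC1 WT replicate 2.

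**Figure D2:**
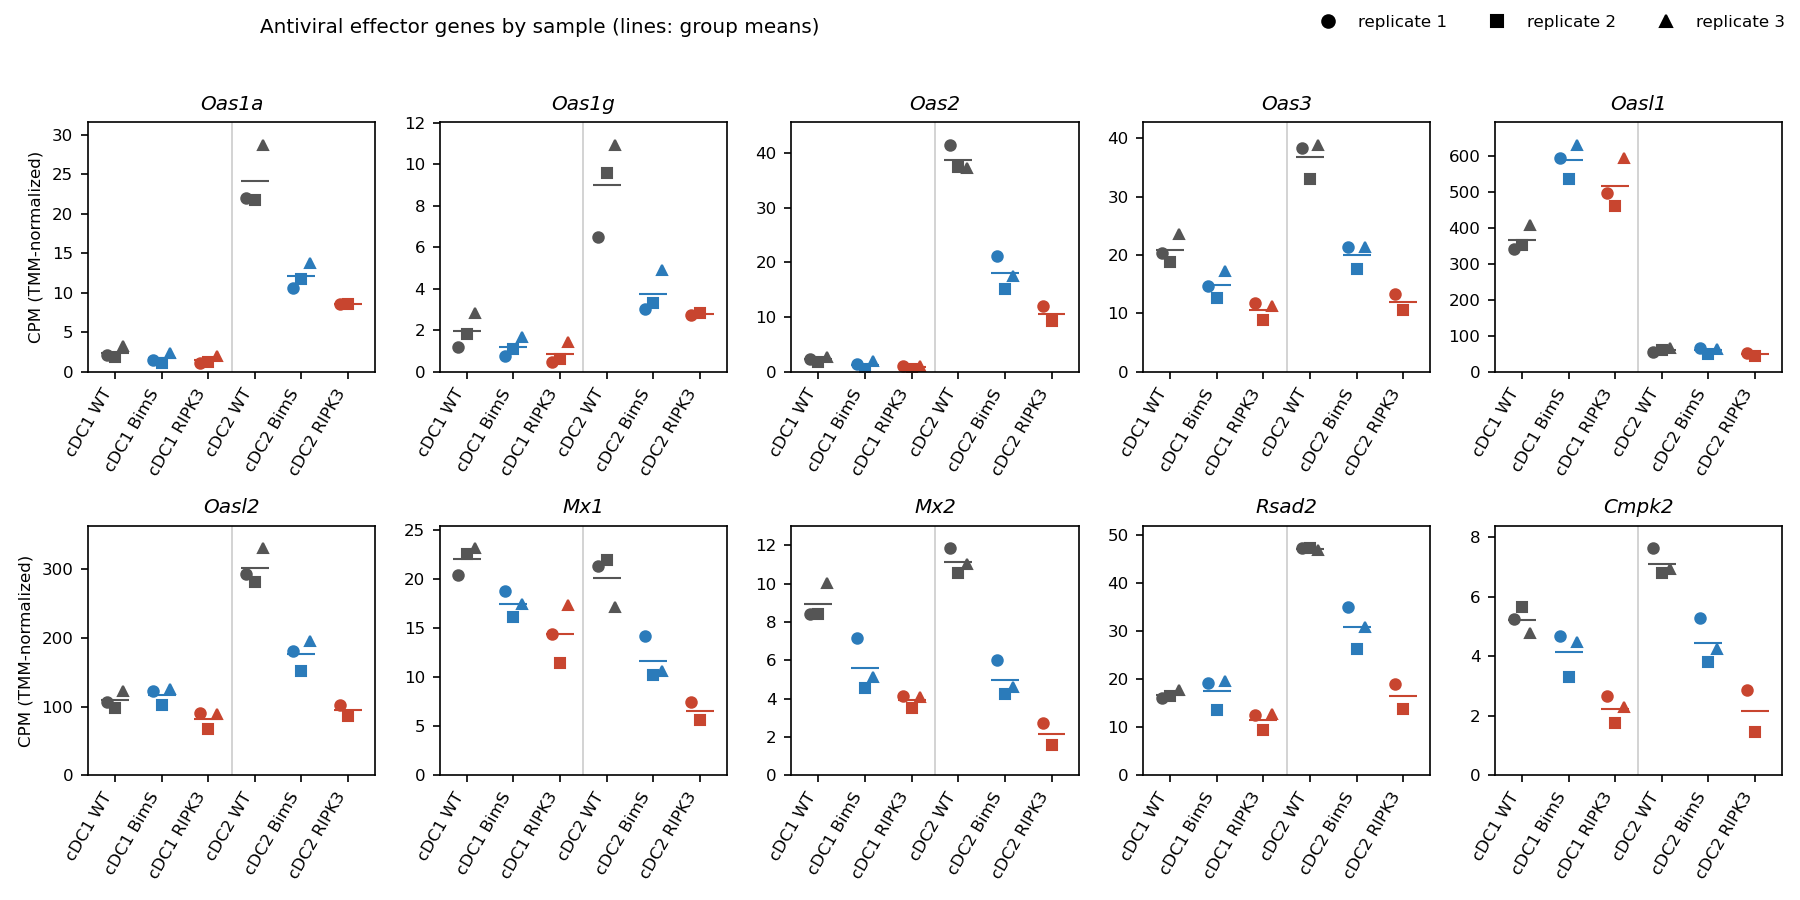
Level of each gene in every sample, in TMM-normalized CPM on linear axes from 0, with a line at the mean of each group and a symbol for each replicate number. In cDC2s every gene but Oasl1 has its WT samples above its BimS and RIPK3 samples, and Oasl1 in cDC1s has its WT samples lowest.

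Oas1a (ENSMUSG00000052776, chromosome 5 from 121031070 to 121046449, minus strand) and Oas1g (ENSMUSG00000066861, chromosome 5 from 121014205 to 121025676, minus strand) encode closely related synthetases. Their reads can be split between near-identical copies, and Oas1a overlaps Oas1d on the other strand, so both levels are uncertain. In cDC2s Oas1a was measured at 21.99, 21.75 and 28.72 CPM with WT medium, 10.6, 11.8 and 13.8 CPM with BimS medium and 8.59 and 8.56 CPM with RIPK3 medium (replicates in order). The 3 media did not overlap, and RIPK3 samples were lowest. Oas1a was thus 2.00-fold lower with BimS (SE of the log2 fold change 0.13, adjusted p = 2.98e-05) and 2.81-fold lower with RIPK3 medium (-1.49, SE 0.15, adjusted p = 1.73e-06). The cDC1 samples were at 2.11, 1.83 and 3.25 CPM with WT, 1.53, 1.13 and 2.42 CPM with BimS and 1.07, 1.22 and 2.02 CPM with RIPK3 medium, from 21 to 72 reads per sample. These groups overlapped, with replicate 3 highest in each. The log2 fold changes of -0.52 (SE 0.28, adjusted p = 0.280) and -0.77 (SE 0.29, adjusted p = 0.0728) were not called. With the replicate block the latter was (-0.74, adjusted p = 0.0116).

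Oas1g in cDC2s was at 6.51, 9.59 and 10.9 CPM with WT, 3.04, 3.30 and 4.91 CPM with BimS and 2.74 and 2.85 CPM with RIPK3 medium. Every WT sample was above every other sample, and both RIPK3 samples were lowest. It fell 2.41-fold with BimS (log2 fold change -1.27, SE 0.20, adjusted p = 0.000396) and 3.21-fold with RIPK3 medium (-1.68, SE 0.25, adjusted p = 0.000129). In cDC1s, with 9 to 63 reads per sample, it was at 1.20, 1.83 and 2.84 CPM with WT, 0.765, 1.08 and 1.70 CPM with BimS and 0.460, 0.608 and 1.44 CPM with RIPK3 medium. The groups overlapped here too. The log2 fold changes were -0.74 (SE 0.38, adjusted p = 0.280) and -1.28 (SE 0.42, adjusted p = 0.0501), both calls with the block (adjusted p = 0.0350 and 0.000167).

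Oas2 (ENSMUSG00000032690, chromosome 5 from 120868398 to 120887933, minus strand), a synthetase of a tandem pair of OAS domains, had the widest gap between the cell types. In cDC2s it was at 41.5, 37.4 and 37.2 CPM with WT, 21.1, 15.2 and 17.6 CPM with BimS and 12.0 and 9.21 CPM with RIPK3 medium. No groups overlapped. It was 2.16-fold lower with BimS (log2 fold change -1.11, SE 0.12, adjusted p = 3.65e-06), 3.66-fold lower with RIPK3 (-1.87, SE 0.15, adjusted p = 5.32e-08), and lower with RIPK3 than with BimS medium (-0.76, SE 0.15, adjusted p = 0.0234). The last call was lost without cDC2 WT replicate 2, cDC2 BimS replicate 1 or either RIPK3 sample (adjusted p of at most 0.901). In cDC1s its 9 to 60 reads per sample gave 2.36, 1.83 and 2.71 CPM with WT, 1.43, 0.518 and 1.96 CPM with BimS and 1.13, 0.456 and 1.09 CPM with RIPK3 medium. RIPK3 samples were all below WT samples, while BimS samples overlapped both. The fall with RIPK3 medium was 2.61-fold (log2 fold change -1.38, SE 0.37, adjusted p = 0.0144), a call lost without cDC1 WT replicate 1 or cDC1 WT replicate 3 (adjusted p of at most 0.0707). With BimS medium the log2 fold change was -0.84 (SE 0.34, adjusted p = 0.137, and 0.00572 with the block).

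Oas3 (ENSMUSG00000032661, chromosome 5 from 120891163 to 120915729, minus strand), the longest synthetase, changed in both cell types. The cDC1 samples held 20.4, 18.8 and 23.7 CPM with WT, 14.6, 12.6 and 17.4 CPM with BimS and 11.8, 8.92 and 11.3 CPM with RIPK3 medium. In cDC2s it was at 38.3, 33.0 and 38.9 CPM, 21.4, 17.5 and 21.3 CPM, and 13.4 and 10.7 CPM. No groups overlapped within a cell type, and RIPK3 samples were lowest in both. In cDC1s it fell 1.41-fold with BimS (log2 fold change -0.50, SE 0.12, adjusted p = 0.00420) and 1.98-fold with RIPK3 medium (-0.99, SE 0.12, adjusted p = 1.86e-06). In cDC2s the falls were 1.84-fold (-0.88, SE 0.11, adjusted p = 2.77e-05) and 3.06-fold (-1.61, SE 0.14, adjusted p = 1.34e-07). RIPK3 was below BimS medium in cDC1s (-0.49, SE 0.13, adjusted p = 0.0287) and cDC2s (-0.74, SE 0.14, adjusted p = 0.0160). The first of these calls was lost without cDC1 BimS replicate 1 or 3 or cDC1 RIPK3 replicate 2 (adjusted p of at most 0.146), and the second without cDC2 BimS replicate 1 or 3 or either cDC2 RIPK3 sample (at most 0.717).

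Oasl1 (ENSMUSG00000041827, chromosome 5 from 115061294 to 115075974, plus strand), an OAS-like protein with no synthetase activity that is known to repress translation of Irf7, took a course of its own. In cDC1s it was at 341.5, 352.1 and 406.9 CPM with WT, 593.9, 535.1 and 630.1 CPM with BimS and 494.9, 460.1 and 594.6 CPM with RIPK3 medium. All samples with medium of dying cells were above all WT samples, and BimS and RIPK3 samples overlapped. The rise was 1.60-fold with BimS (log2 fold change 0.68, SE 0.12, adjusted p = 0.0107) and 1.40-fold with RIPK3 medium (0.49, SE 0.12, adjusted p = 0.0370). The first call was lost without cDC1 WT replicate 2 or cDC1 BimS replicate 1 (adjusted p of at most 0.0531). The second was lost without cDC1 WT replicate 1 or 2, cDC1 BimS replicate 1, or cDC1 RIPK3 replicate 1 or 3 (adjusted p of at most 0.125). Its 6812 to 12239 reads per cDC1 sample made it the most deeply measured of the genes. Oasl1 overlaps Gm72936 on its own strand and Gm13822 on the other, with an untested effect on its count. In cDC2s it was at 55.5, 61.2 and 67.1 CPM with WT, 65.3, 49.1 and 64.7 CPM with BimS and 53.5 and 45.2 CPM with RIPK3 medium. The BimS samples overlapped the WT samples (log2 fold change -0.04, 95% interval -0.27 to 0.19, adjusted p = 0.897), and the RIPK3 samples lay just below them (-0.31, SE 0.12, adjusted p = 0.169). With the block the latter was called (-0.25, adjusted p = 0.00146).

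Oasl2 (ENSMUSG00000029561, chromosome 5 from 115034997 to 115050295, plus strand), an OAS-like protein that carries ubiquitin-like domains, fell in cDC2s and was not called in cDC1s. In cDC2s it was at 293.3, 281.6 and 330.6 CPM with WT, 180.9, 152.2 and 195.3 CPM with BimS and 102.0 and 87.0 CPM with RIPK3 medium. The cDC1 samples were at 107.4, 98.7 and 122.9 CPM with WT, 122.2, 102.2 and 125.1 CPM with BimS and 91.2, 67.2 and 88.7 CPM with RIPK3 medium. The 3 media were apart in cDC2s, whereas in cDC1s WT and BimS samples overlapped and RIPK3 samples were lowest. In cDC2s the falls were 1.72-fold with BimS (log2 fold change -0.78, SE 0.10, adjusted p = 1.99e-05) and 3.19-fold with RIPK3 medium (-1.67, SE 0.11, adjusted p = 9.01e-09), and RIPK3 was below BimS medium (-0.89, SE 0.11, adjusted p = 0.000742). In cDC1s the log2 fold changes were 0.09 with BimS (95% interval -0.27 to 0.44, adjusted p = 0.832) and -0.42 with RIPK3 medium (SE 0.15, adjusted p = 0.129). The latter was a call with the block (adjusted p = 3.16e-13) and with DESeq2 (adjusted p = 0.0301).

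Mx1 (ENSMUSG00000000386, chromosome 16 from 97248235 to 97264107, minus strand) and Mx2 (ENSMUSG00000023341, chromosome 16 from 97336508 to 97362100, plus strand) encode MX GTPases. Most laboratory strains, C57BL/6 included, are known to carry defective Mx alleles, and the annotation GENCODE M39 marks 2 of 10 transcripts of Mx1 and 2 of 4 of Mx2 as loss of function, so these are levels of RNA and not of working protein. In cDC2s Mx1 was at 21.38, 21.98 and 17.23 CPM with WT, 14.2, 10.2 and 10.7 CPM with BimS and 7.51 and 5.65 CPM with RIPK3 medium. The levels in cDC1s were 20.4, 22.6 and 23.2 CPM with WT, 18.8, 16.1 and 17.5 CPM with BimS and 14.4, 11.5 and 17.4 CPM with RIPK3 medium. WT samples were highest in both cell types, and BimS and RIPK3 samples overlapped in cDC1s only. In cDC2s Mx1 fell 1.73-fold with BimS (log2 fold change -0.79, SE 0.14, adjusted p = 0.00109) and 3.07-fold with RIPK3 medium (-1.62, SE 0.18, adjusted p = 3.17e-06). In cDC1s the falls were 1.26-fold (-0.34, SE 0.11, adjusted p = 0.0372) and 1.54-fold (-0.63, SE 0.11, adjusted p = 0.000161). The call with BimS medium in cDC1s was lost without cDC1 WT replicate 2 or 3 or cDC1 BimS replicate 2 or 3 (adjusted p of at most 0.149).

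Mx2 had the largest fall of the 10 genes in cDC2s with RIPK3 medium. In cDC2s Mx2 was at 11.8, 10.6 and 11.0 CPM with WT, 6.02, 4.26 and 4.62 CPM with BimS and 2.74 and 1.57 CPM with RIPK3 medium. The levels in cDC1s were 8.42, 8.39 and 10.0 CPM with WT, 7.14, 4.57 and 5.15 CPM with BimS and 4.14, 3.50 and 4.09 CPM with RIPK3 medium. The 3 media did not overlap in either cell type. In cDC2s the falls were 2.26-fold with BimS (log2 fold change -1.17, SE 0.17, adjusted p = 9.33e-05) and 5.20-fold with RIPK3 medium (-2.38, SE 0.22, adjusted p = 4.18e-07). In cDC1s they were 1.60-fold (-0.68, SE 0.14, adjusted p = 0.000632) and 2.30-fold (-1.20, SE 0.15, adjusted p = 1.07e-07).

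Rsad2 (ENSMUSG00000020641, chromosome 12 from 26492745 to 26506451, minus strand) encodes viperin, and Cmpk2 (ENSMUSG00000020638, chromosome 12 from 26519203 to 26529836, plus strand) a mitochondrial UMP/CMP kinase that supplies viperin's substrate. The genes lie near each other, on opposite strands. In cDC2s Rsad2 was at 47.2, 47.1 and 46.7 CPM with WT, 35.0, 26.2 and 30.9 CPM with BimS and 19.0 and 13.8 CPM with RIPK3 medium. The cDC1 samples held 16.1, 16.4 and 17.8 CPM with WT, 19.1, 13.7 and 19.5 CPM with BimS and 12.6, 9.37 and 12.8 CPM with RIPK3 medium. In cDC2s the 3 media were apart, whereas in cDC1s BimS samples spread around the WT samples and RIPK3 samples were lowest. In cDC2s Rsad2 fell 1.54-fold with BimS (log2 fold change -0.62, SE 0.12, adjusted p = 0.00142) and 2.87-fold with RIPK3 medium (-1.52, SE 0.14, adjusted p = 3.87e-07). In cDC1s the log2 fold change with BimS medium was 0.05 (95% interval -0.22 to 0.33, adjusted p = 0.886). With RIPK3 medium it fell 1.46-fold (-0.54, SE 0.14, adjusted p = 0.0101), a call lost without cDC1 WT replicate 3 (adjusted p = 0.0544).

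Cmpk2 in cDC2s was at 7.64, 6.79 and 6.92 CPM with WT, 5.29, 3.80 and 4.26 CPM with BimS and 2.86 and 1.46 CPM with RIPK3 medium. In cDC1s it was at 5.26, 5.64 and 4.78 CPM with WT, 4.69, 3.30 and 4.48 CPM with BimS and 2.66, 1.77 and 2.30 CPM with RIPK3 medium. The media did not overlap in either cell type. In cDC1s the fall with RIPK3 medium was 2.33-fold (log2 fold change -1.22, SE 0.18, adjusted p = 3.16e-06), and the difference with BimS medium was not called (-0.33, SE 0.16, adjusted p = 0.221). In cDC2s Cmpk2 fell 3.32-fold with RIPK3 (-1.73, SE 0.24, adjusted p = 5.84e-05) and 1.61-fold with BimS medium (-0.69, SE 0.19, adjusted p = 0.0279). The last call was lost without cDC2 WT replicate 1 or 2 or cDC2 BimS replicate 2 or 3 (adjusted p of at most 0.170).

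**Figure D3:**
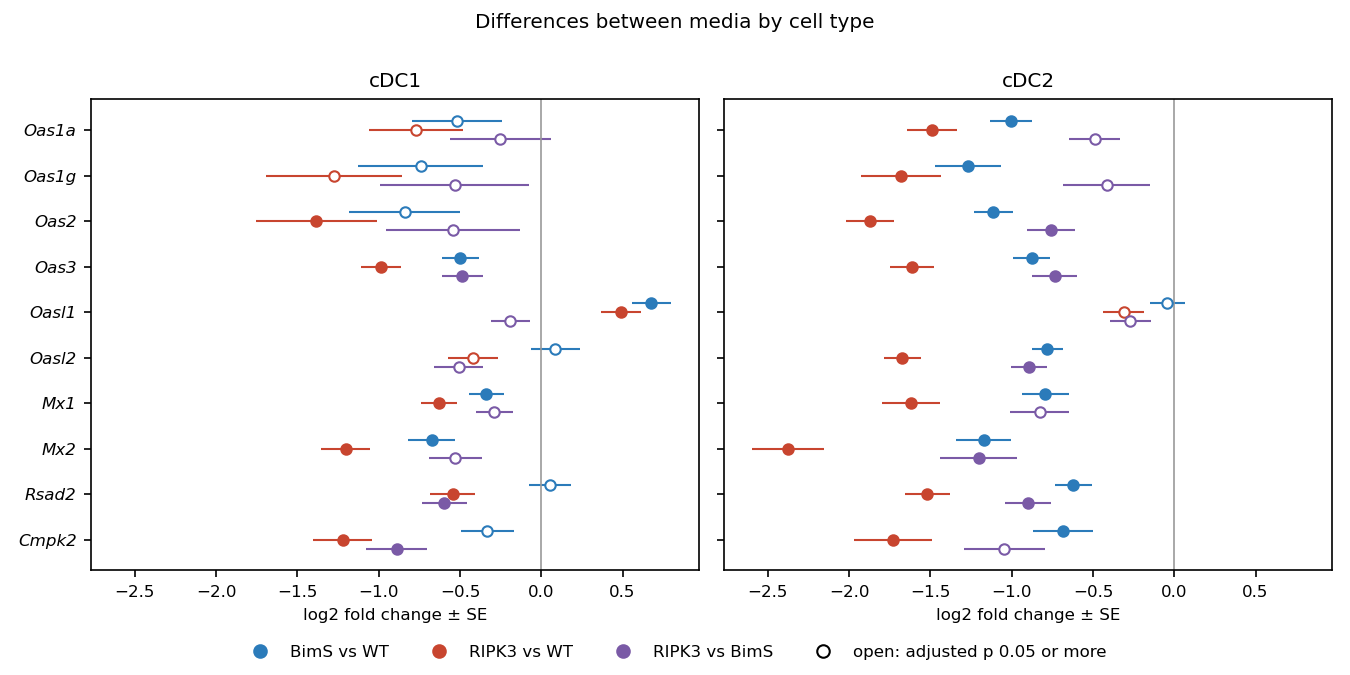
Log2 fold change ± SE of each gene between the media, in cDC1s (left) and cDC2s (right), with filled points for an adjusted p under 0.05. In cDC2s all differences against WT medium but those of Oasl1 are filled and below 0, and Oasl1 in cDC1s is the only gene with filled points above 0.

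Media of necroptotic and apoptotic cells were compared directly in each cell type. In cDC2s Oas2, Oas3, Oasl2, Mx2 and Rsad2 were lower with RIPK3 than with BimS medium, 5 of 10 genes where 0.218% of all genes were called lower and 0.161% higher. The median log2 fold change was -0.79, beside 0.00 over all genes. The largest of these differences was that of Mx2, 2.30-fold (log2 fold change -1.20, SE 0.24, adjusted p = 0.0234), followed by Rsad2, 1.87-fold (-0.90, SE 0.14, adjusted p = 0.00466). Cmpk2 (-1.04, SE 0.25, adjusted p = 0.0813) and Mx1 (-0.83, SE 0.18, adjusted p = 0.0501) missed the threshold, and both were called with the block (adjusted p = 2.24e-05 and 4.22e-10). With the block 9 of 10 were called lower, Oas1a (adjusted p = 0.0242) and Oasl1 (0.0203) included, where the calls over all genes also rose, from 42 to 1617 of 19239 lower. The count was 0 without cDC2 RIPK3 replicate 2, 2 without cDC2 RIPK3 replicate 1, 2 without cDC2 BimS replicate 1 and 3 without cDC2 WT replicate 2. Over all genes these fits called 0, 12, 23 and 48 genes in either direction, against 73 with all samples, and the median of the 10 genes was -0.60 and -0.99 without RIPK3 replicate 2 and 1. Fits that leave out a RIPK3 sample assume that the lone sample varies like the other groups. With all samples and the filter filterByExpr, 2 of the 10 were called, beside 46 of 12978 genes in either direction.

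In cDC1s Oas3, Rsad2 and Cmpk2 were lower with RIPK3 than with BimS medium, 3 of 10 genes where 2.21% of all genes were called lower and 1.94% higher. The median log2 fold change was -0.52, beside 0.00 over all genes. Cmpk2 was 1.85-fold lower (log2 fold change -0.89, SE 0.19, adjusted p = 0.00329) and Rsad2 1.51-fold lower (-0.60, SE 0.14, adjusted p = 0.0195). Oasl2 (-0.51, SE 0.15, adjusted p = 0.160), Mx1 (-0.29, SE 0.11, adjusted p = 0.190), Mx2 (-0.53, SE 0.16, adjusted p = 0.0570) and Oasl1 (-0.19, SE 0.12, adjusted p = 0.557) were not called. All 4 were called with the block, which gave 7 calls (adjusted p between 2.23e-16 and 0.0231) and raised the calls over all genes from 432 to 935 of 19513 lower. The count was 1 without cDC1 BimS replicate 1 or replicate 3, and 5 without cDC1 RIPK3 replicate 3.

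Differences were also counted within each replicate number. Between RIPK3 and WT medium in cDC2s, log2 CPM was lower with RIPK3 in 20 of 20 differences over the 10 genes and 2 replicate numbers, and between RIPK3 and BimS medium also in 20 of 20. In cDC1s it was lower with RIPK3 than with WT medium in 27 of 30 differences, and the other 3 were those of Oasl1. Between BimS and WT medium it was lower in 29 of 30 differences in cDC2s and in 22 of 30 in cDC1s, where Oasl1 and Oasl2 were higher with BimS medium in all 3 replicate numbers and Rsad2 in 2 of 3. These counts share the samples of the tests above, and most of the genes vary together, so the differences are not independent observations. The same count was not made over all genes. In the fits, 10084 of 19239 genes in cDC2s had a log2 fold change below 0 for RIPK3 against WT, 9752 for RIPK3 against BimS and 10005 for BimS against WT medium. In cDC1s 9907 of 19513 did so for RIPK3 against WT and 9722 for BimS against WT medium.

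Whether the response differed between the cell types was tested as an interaction, the log2 fold change in cDC1s minus that in cDC2s. For RIPK3 against WT medium 4 of 10 genes were called, beside 1.14% of all genes. They were Oasl2 at 1.25 (SE 0.20, adjusted p = 0.00361), Mx2 at 1.17 (SE 0.29, adjusted p = 0.0349), Mx1 at 0.99 (SE 0.23, adjusted p = 0.0270) and Rsad2 at 0.97 (SE 0.22, adjusted p = 0.0313). Each fell further in cDC2s than in cDC1s. For BimS against WT medium Oasl2 was called (0.87, SE 0.18, adjusted p = 0.0346), 1 of 10 genes beside 0.87% of all genes. All 10 estimates were above 0 in both comparisons, with medians of 0.75 and 0.49 beside 0.02 and 0.02 over all genes. These 2 comparisons share their WT samples.

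**Figure D4:**
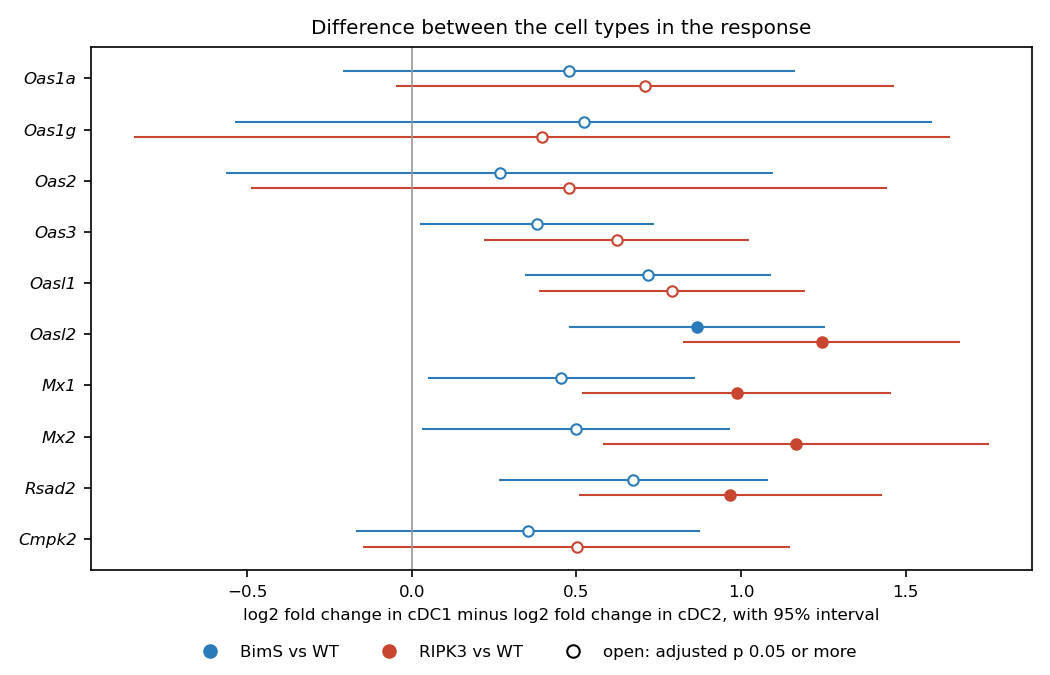
Difference between the cell types in the response to each medium, as the log2 fold change against WT medium in cDC1s minus that in cDC2s, with 95% intervals and filled points for an adjusted p under 0.05. All 10 estimates lie above 0 for both media, and Oasl2 has the largest, 0.87 for BimS and 1.25 for RIPK3 medium.

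Oasl1, which rose in cDC1s and did not pass the test in cDC2s, had interactions of 0.72 for BimS (SE 0.18, adjusted p = 0.0836) and 0.79 for RIPK3 medium (SE 0.19, adjusted p = 0.0603). Both were calls with the block (adjusted p = 0.00382 and 0.00905) and with DESeq2 (adjusted p = 0.00372 and 0.00181). With the block 5 genes were called for BimS medium, with Oas3, Mx1 and Rsad2 added, and 6 for RIPK3 medium, with Oas3 added. Over all 19082 genes the block called 957 and 964, against 166 and 217 without it. The 4 calls for RIPK3 medium fell to 1 when any of 6 samples was left out, namely replicate 1 or 2 of cDC1 WT, replicate 1 of cDC2 WT, replicate 1 or 3 of cDC1 RIPK3, or replicate 2 of cDC2 RIPK3. Over all genes these 6 fits called between 111 and 230 genes. The 4 calls fell to 2 without cDC2 WT replicate 2, and the Rsad2 call was also lost without cDC2 WT replicate 3 or cDC2 BimS replicate 3 (adjusted p of at most 0.237). The Oasl2 call for BimS medium was lost in 9 of 17 such fits, without any of the cDC2 WT samples, replicate 1 or 2 of cDC1 WT, replicate 1 or 3 of cDC1 BimS, or replicate 1 or 2 of cDC2 BimS (adjusted p of at most 0.141). For RIPK3 against BimS medium edgeR called 0 of 10 genes, beside 0.0314% of all genes, with estimates from -0.13 to 0.67. At an unadjusted p under 0.05 there were 2 of the 10, beside 972 of 19082 genes. The block gave 1 call there, Oasl2 (0.30, adjusted p = 0.00884), beside 452 of 19082 genes, and DESeq2 gave 0 of the 10.

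To compare profiles, log2 CPM was centred and scaled within each cell type, so that differences in level between the cell types do not enter. Across all 17 samples, 9 of the genes then followed the mean of the others, with Pearson's r from 0.795 for Oas1g to 0.952 for Oas3. Oasl1 did not (r = 0.177). Among 7776 other genes of sufficient level, treated in the same way, those most like the mean profile were Irgm2 (r = 0.966), Xaf1 (0.959), Zbp1 (0.956), Irgm1 (0.951) and Trim14 (0.946). These points share their groups, libraries and replicate numbers, and the values are descriptions.

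Enzymes that degrade the oligoadenylates did not share the fall. Pde12 was called higher in cDC1s with BimS medium (log2 fold change 0.28, adjusted p = 0.0111), and its other differences from WT medium were not called (0.22 in cDC1s with RIPK3 medium, and 0.25 and 0.09 in cDC2s with BimS and RIPK3 medium). Akap7 was called higher in cDC2s with BimS medium (0.59, adjusted p = 0.0398), and its other differences were not called (0.52 in cDC2s with RIPK3 medium, and 0.11 and 0.22 in cDC1s). Of the other Oas1 genes, Oas1b was called lower with both media in cDC1s (-0.78 and -1.71, adjusted p = 0.0410 and 4.16e-05) and in cDC2s (-0.99 and -1.64, adjusted p = 0.00200 and 9.68e-05). Oas1c had 2 to 50 reads per sample and was not called between media. Oas1e and Oas1h had at most 2 reads in any sample, and Oas1d and Oas1f are not analysed here.

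Among partners of viperin and CMPK2, the iron-sulfur targeting factors Ciao1, Ciao2b and Mms19 and the cytosolic kinase Cmpk1, Ciao2b was the only gene called against WT medium. It rose in cDC1s with BimS (log2 fold change 0.21, adjusted p = 0.0291) and RIPK3 medium (0.30, adjusted p = 0.000859), and 0 of the 4 genes were called in cDC2s, where 0 with BimS and 1 with RIPK3 medium had an unadjusted p under 0.05. DESeq2 was not run for a count over this list.

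Of 13 genes of interferon signaling, 2 were called higher and 3 lower with BimS, and 2 higher and 4 lower with RIPK3 medium in cDC1s. In cDC2s 1 was higher and 4 were lower of 12 tested with each medium. The ISGF3 subunits Stat2 and Irf9 fell throughout, by 0.32 and 0.37 on the log2 scale with BimS and by 0.63 and 0.45 with RIPK3 medium in cDC1s, and by 0.64 and 0.66, and 0.92 and 0.82, in cDC2s (adjusted p from 8.43e-08 to 0.00183). Irf7, the interferon-induced factor, fell in cDC2s by 0.75 and 1.17 (adjusted p = 0.0170 and 0.00263) and in cDC1s with RIPK3 medium by 0.84 (adjusted p = 0.0457). Usp18, an inhibitor of the receptor that interferon induces, fell in cDC2s by 0.96 and 2.03 (adjusted p = 0.000509 and 1.80e-06) and in cDC1s with RIPK3 medium by 1.39 (adjusted p = 0.00784). Irf1 rose in both cell types, by between 0.44 and 0.52 (adjusted p from 4.98e-09 to 0.00284), and Socs1, an inhibitor of JAK kinases, rose in cDC1s (0.29 and 0.40, adjusted p = 0.00272 and 3.09e-05). The receptor genes moved little: Ifnar1 was called in cDC1s with BimS medium alone (-0.15, adjusted p = 0.0253). Ifnb1 had too few reads for a fold, with a mean of 0.0167 to 0.138 CPM in cDC1 groups and 0 to 0.0203 CPM in cDC2 groups.

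Other interferon-stimulated genes, a list of 30 that shares no gene with the 10, are given for context. In cDC2s 22 were called lower with BimS and 26 with RIPK3 medium, with medians of -0.66 and -1.18. In cDC1s 14 and 20 were called lower, with medians of -0.43 and -0.68, and none were called higher in any of these comparisons. The lowest of these values was that of Ifit1 in cDC2s with RIPK3 medium, -2.66 on the log2 scale (adjusted p = 1.09e-08), named after its value was seen.

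Some marker sums of the dying-cell media did not overlap those of WT medium. In cDC2s the summed level of 7 TC-1 epithelial markers was between 31.2 and 39.8 CPM with WT, 22.5 and 35.3 CPM with BimS and 19.9 and 25.8 CPM with RIPK3 medium, with 1 of the 7 markers at 0 counts in all WT samples and 0 of 7 in the other groups. That of 7 plasmacytoid dendritic cell markers was between 174.7 and 191.3, 173.9 and 187.0, and 158.5 and 159.5 CPM, with 1 marker at 0 with WT, 1 with BimS and 0 with RIPK3 medium. RIPK3 samples were lowest for the plasmacytoid list, and overlapped BimS samples for the TC-1 list. The 7 cDC1 markers summed to between 64.8 and 84.3, 52.3 and 78.2, and 46.9 and 64.2 CPM in the same groups, with 0, 0 and 1 markers at 0 counts. The 6 T and NK cell markers summed to between 1.07 and 1.23, 0.474 and 0.974, and 0.763 and 0.816 CPM, with 2, 2 and 3 markers at 0 counts. WT samples were thus highest in each of these sums against RIPK3 medium. In cDC1s the 9 macrophage and monocyte markers summed to between 12.7 and 14.3 CPM with WT, 8.22 and 9.90 CPM with BimS and 9.72 and 12.5 CPM with RIPK3 medium, with 0, 1 and 0 markers at 0 counts. The plasmacytoid markers summed to between 55.4 and 65.4, 49.2 and 54.8, and 48.2 and 56.0 CPM, with 0, 1 and 2 markers at 0 counts. The WT samples lay above the BimS samples for both lists. Also in cDC1s the 6 B cell markers summed to between 0.852 and 1.22, 0.357 and 0.824, and 0.563 and 1.27 CPM, with 0 at 0 counts in each group, and the T and NK cell markers to between 0.361 and 0.661, 0.283 and 0.412, and 0.230 and 0.358 CPM, with 2, 1 and 0 at 0 counts. Their part in the result was not tested.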

How the data were processed

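Polyadenylated RNA of 17 sorted samples had been sequenced. Per the study's methods, the authors trimmed reads with SeqPurge, aligned them with STAR (2.7.10a) to GRCm39 and counted reads on Ensembl genes with gensum. The deposited counts are raw, and the use of strand in counting is not given in the sources used here. Besides Oas1a and Oasl1, the genes Oas2, Mx1 and Cmpk2 overlap annotated genes on the other strand, and the effect on their counts was not tested. The deposited normalized table was not used. Of 31239 lines, 148 without gene identifier (0.0258% to 0.0366% of counts) were left out. Symbols and positions came from GENCODE M39.

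Counts were tested with edgeR (4.0.16, R 4.3.3) by two-sided quasi-likelihood tests after TMM normalization, over genes detected in 50% or more of the samples (19513 in cDC1s, 19239 in cDC2s, 19082 in all), with groups as the only term. Alternatives were limma (3.58.1) on log2(count + 1), the study's tool and scale, DESeq2 (1.42.0), RLE size factors, other filters and an unadjusted threshold. A block of replicate numbers within each cell type and leaving out each sample were used as well. Tested on simulated data, the fits within a cell type gave more false calls than the adjusted threshold allows, so calls near the threshold are less certain than their adjusted p states. All 10 genes were named, with genes of fixed pathway lists and the 5 most similar profiles. Some genes of the lists are not reported here. The members and lists were chosen with earlier results of these data known. Intervals and read numbers cover these libraries only, and reads without molecular identifiers are not independent molecules.

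Samples of the same replicate number went together. After removal of group means, same-numbered samples correlated above 0.1 in 9 of 9 pairs in cDC1s (median 0.324) and 7 of 7 in cDC2s (0.427). Pairs of different numbers did so in 1 of 18 and 3 of 14. These sets of pairs are not independent, since removing a group mean makes the rest sum to 0. The cDC2 samples with RIPK3 medium thus mirror each other (0.372 and -0.372 with cDC2 WT replicate 1).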

Additional observations from a re-analysis of the deposited data

Results flagged for a closer look

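The responses of Oasl2, Mx1, Mx2 and Rsad2 were noted because the test of the difference between the cell types itself passed the threshold in edgeR. For RIPK3 against WT medium, the log2 fold change in cDC1s minus that in cDC2s was 1.25 for Oasl2, 0.99 for Mx1, 1.17 for Mx2 and 0.97 for Rsad2. For BimS against WT medium it was 0.87 for Oasl2.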

How the results depend on the processing

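Every alternative kept the direction of each called difference of the 10 genes. With the replicate block, the number of genes called became 7 for RIPK3 against BimS medium in cDC1s, 9 for the same comparison in cDC2s, and 5 and 1 for the interactions of BimS against WT and RIPK3 against BimS medium, and it lost no call. Over all genes the block called 1730, 2755, 957 and 452 in these comparisons, against 810, 73, 166 and 6 without it. For the interaction of BimS against WT medium DESeq2 gave 2 calls, filterByExpr 2, no filter 3, limma on counts without normalization 2 and the unadjusted threshold (p under 0.05 and a log2 fold change beyond 0.5) 3. The unadjusted threshold also gave 2 for the interaction of RIPK3 against BimS medium. The filter filterByExpr gave 2 for RIPK3 against BimS medium in cDC2s, where 46 of 12978 genes were called against 73 of 19239 in the main fit. In cDC1s limma gave 5 for the same comparison. The cause of these changes was not tested. RLE size factors moved no count by over 1.5 times. Without normalization the median of all genes was -0.12 and -0.17 for RIPK3 against WT medium in cDC1s and cDC2s and 0.16 between the cell types.

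When each sample was left out in turn, the number of genes called ranged from 2 to 4 for BimS against WT, 5 to 9 for RIPK3 against WT and 1 to 5 for RIPK3 against BimS medium in cDC1s, from 8 to 9, 9 to 9 and 0 to 7 in cDC2s, from 0 to 2, 1 to 5 and 0 to 0 for the interactions, and from 7 to 8 between the cell types with WT medium. Differences that were not called could change sign in these fits. Oasl1 for BimS against WT medium in cDC2s ranged from -0.11 to 0.085, Rsad2 for BimS against WT medium in cDC1s from -0.038 to 0.20 and Oas1a for RIPK3 against BimS medium in cDC1s from -0.56 to 0.094. In the interactions, Oas2 ranged from -0.15 to 0.66 for BimS against WT medium and Oas1g from -0.22 to 0.78 for RIPK3 against WT medium. For RIPK3 against BimS medium Oas1a ranged from -0.077 to 0.57, Oas1g from -0.73 to 0.22, Oas2 from -0.19 to 0.63, Oasl1 from -0.052 to 0.21 (-0.0031 with the block) and Cmpk2 from -0.28 to 0.71. In cDC1s Oas1a, Oas1g and Oas2 had 9 to 72 reads per sample, which limits the precision of their fold changes.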
